A study of Rattus norvegicus with 18 samples.

Results

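The activators and repressors that make up the core loop of the circadian clock, Bmal1, Clock, Npas2, Per1, Per2, Per3, Cry1 and Cry2, were followed in rat lung over the hours after the last of many sessions of cigarette smoke or sham exposure. Every probe set annotated to 1 of these symbols and to no other gene was taken, which gave 13 probe sets of 31256 on both array types together, 9 on type A and 4 on type B, for 8 of 13807 genes with a single symbol. A probe set is a group of short probes on an Affymetrix array that reads 1 transcript or a few related ones. Bmal1 (1370510_a_at), Npas2 (1383439_at), Per1 (1374855_at) and Cry1 (1392640_at) had 1 probe set each, Per2, Per3 and Cry2 had 2, and Clock had 3.

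Male Sprague-Dawley rats breathed mainstream smoke of the standard reference cigarette 2R4F through the nose, or were sham-exposed, 2 h a day on 5 days a week for 13 weeks. The exposures were sham, 300 and 600 µg/l of smoke particles, given as total particulate matter (TPM), and dissection followed the last session by 2, 6 or 20 h. Each of the 9 conditions was measured with 1 array of each of 2 types, 18 arrays in all, so no condition had a replicate array. The labels give neither the number of animals behind an array nor the clock time of the sessions or dissections. All 4 smoke arrays at 20 h carry a further label that says sham, while their titles and source names give the smoke exposure, which is used here.

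Values are MAS5 signals, linear intensities that the authors had scaled so that the trimmed mean of every array was 500.09 or 500.10. Among the B arrays, sham at 2 h and 300 µg TPM/l at 2 h resembled each other: their departures from the average of the 9 B arrays had r = 0.45 across probe sets, which are not independent, and no other pair of B arrays exceeded 0.04. The first of them is called the doubtful B array here. Results for Npas2, Per3 and Cry1, which were read on type B, rest in part on it. The markers of alveolar type 1, alveolar type 2, club and endothelial cells that the arrays carry were all above the filter on low signals in these lungs. Macrophage markers, 4 of 5 on the arrays, summed to 18152.1 to 20889.1 at 300 and 22286.9 to 25117.2 at 600 µg TPM/l, against 12814.5 to 13664.2 in sham, and neutrophil markers, 3 of 4 on the arrays, to 3081.6 to 4110.1 and 3909.1 to 8250.2, against 1287.0 to 2208.6 in sham. In whole lung, fewer cells of a type and less RNA per cell cannot be told apart.

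In the mammalian clock, BMAL1 pairs with CLOCK or its relative NPAS2 and switches on the Per and Cry genes through E-box sequences, and the PER and CRY proteins then return to the nucleus and inhibit that pair. A second loop joins in through REV-ERB repressors and ROR activators, which compete for RORE sequences in the Bmal1 promoter. Activator and repressor transcripts therefore usually run in opposite phase, and the airway epithelium and other cells of the lung are known to keep such rhythms.

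The promoters of Bmal1 and Per2 are shown because these genes stand for the 2 arms of the loop, and because the motifs of both loops were found in them. They are the 250 bases before and the first 50 bases after the RefSeq transcription start in the rat build GRCr8, from chr1:176766078-176766377 on the plus strand for Bmal1 and chr9:99496944-99497243 on the minus strand for Per2. Capitals mark the motifs found.
Bmal1: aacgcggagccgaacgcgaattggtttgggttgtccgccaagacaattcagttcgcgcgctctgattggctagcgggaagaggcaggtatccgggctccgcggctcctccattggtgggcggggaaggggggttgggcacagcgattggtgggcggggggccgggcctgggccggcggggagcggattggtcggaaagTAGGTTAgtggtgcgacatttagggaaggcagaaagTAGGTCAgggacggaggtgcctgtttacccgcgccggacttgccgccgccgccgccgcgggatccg
Per2: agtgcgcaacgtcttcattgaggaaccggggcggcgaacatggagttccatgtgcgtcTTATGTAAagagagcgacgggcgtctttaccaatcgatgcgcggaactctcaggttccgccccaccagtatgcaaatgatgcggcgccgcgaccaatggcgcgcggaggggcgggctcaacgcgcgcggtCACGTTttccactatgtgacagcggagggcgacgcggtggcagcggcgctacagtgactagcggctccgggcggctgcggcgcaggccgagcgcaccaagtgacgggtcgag
Motifs were searched on both strands: the E-box CACGTG, the related CACGTT, the RORE core TAGGTCA and its variant TAGGTTA, the D-box TTANGTAA and the cAMP-response element TGACGTCA. The Bmal1 promoter held TAGGTCA from position -16 and TAGGTTA from position -52, counted from the start site. Of all 33469 rat promoters of this length, 2.63% held the first, 1.61% the second and 0.0807% both. The Per2 promoter held CACGTT from position -62 and the D-box TTATGTAA from position -192, motifs present in 4.83% and 2.24% of promoters. Cry2 held CACGTT on the opposite strand, and the windows of Clock (2 start sites), Npas2 and Per3 held none of these letters. The start site in the table for Per1 lies well inside the gene, so nothing is said of its promoter, and Cry1 was not searched. None of the matches overlapped another. A match is a description of the sequence, and these arrays did not measure binding.

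Of the 13 probe sets, 9 passed the filter, which required 3 or more arrays at or above the 40th percentile of signals of their type, 183.8 for A and 238.7 for B, and these 9 cover all 8 genes. Bmal1 was the dimmest of them and reached that level on 5 of its 9 arrays. The 4 that did not pass are dim probe sets of genes that a brighter one also reads. They read 82.2 to 133.9 for Clock (1369168_a_at), 61.8 to 88.5 for Per2 (1378560_at), 5.6 to 74.5 for Per3 (1388239_at) and 106.9 to 243.9 for Cry2 (1369446_at), and they were not tested.

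**Figure D1:**
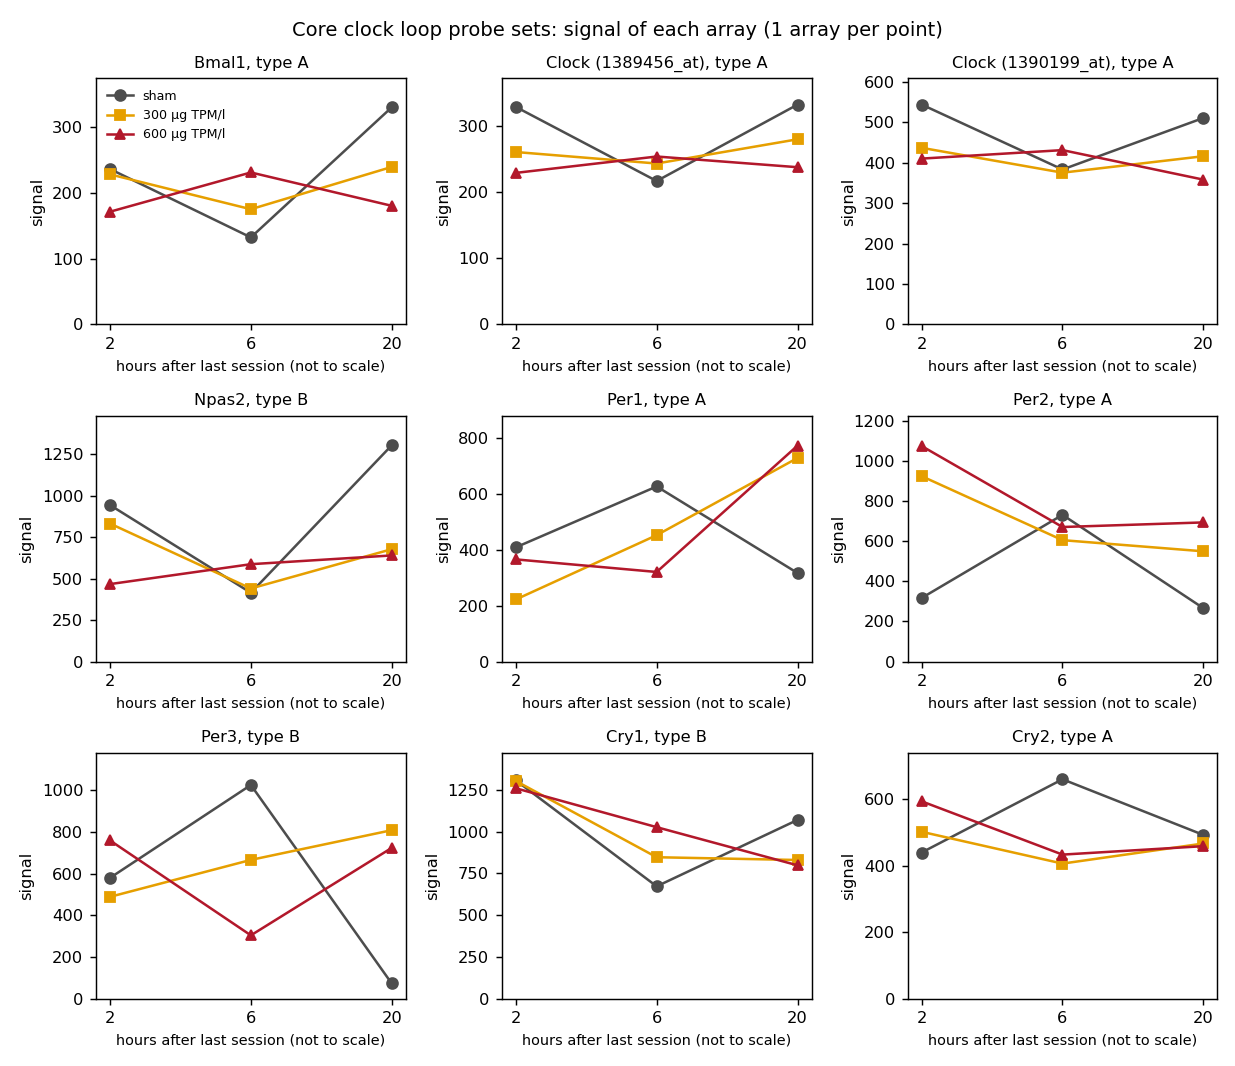
Signal (vertical axis, linear, from 0) of each of the 9 probe sets that passed the filter at 2, 6 and 20 h after the last session (horizontal axis), with 1 array per point, for sham (grey circles), 300 µg TPM/l (orange squares) and 600 µg TPM/l (red triangles). The sham lines of Bmal1, Clock and Npas2 dip at 6 h where those of Per1, Per2, Per3 and Cry2 peak, and the lines of 600 µg TPM/l do not share that course.

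The activators were lowest at 6 h in sham lungs. Bmal1, the partner common to both activator pairs, read 236.6, 132.5 and 330.6 at 2, 6 and 20 h in sham, 228.5, 175.4 and 239.8 at 300 µg TPM/l, and 171.6, 231.4 and 180.6 at 600 µg TPM/l. Its 6 h array was the lowest of the 3 times in sham and at 300, and the highest at 600 µg TPM/l. Npas2, which can take the place of Clock, read 944.3, 415.1 and 1304.9 in sham, 832.7, 440.8 and 678.1 at 300, and 467.4, 587.5 and 640.3 at 600 µg TPM/l. At 600 µg TPM/l its 2 h array was the lowest and the dip at 6 h was missing.

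Clock, whose protein is the usual partner of BMAL1, ran the same way over a smaller range. Its probe set 1389456_at read 329.4, 217.2 and 332.9 in sham, 261.1, 243.7 and 280.4 at 300, and 229.5, 254.3 and 238.1 at 600 µg TPM/l. Its probe set 1390199_at read 543.8, 383.2 and 510.6 in sham, 436.8, 375.3 and 416.0 at 300, and 410.1, 431.1 and 358.1 at 600 µg TPM/l. Both were lowest at 6 h in sham and at 300, and highest at 6 h at 600 µg TPM/l. Across the 9 conditions log2 signals of the activators ran together, with r of 0.88 and 0.74 between Bmal1 and the Clock probe sets, 0.90 between Bmal1 and Npas2, and 0.89 between the 2 Clock probe sets. These are descriptions over 9 conditions that share exposures and times.

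Among the repressors, Per2 showed the widest gap between smoke and sham at 2 h. Per2, a PER protein gene that is also induced by acute signals in many tissues, read (1368303_at) 317.3, 732.3 and 266.4 at 2, 6 and 20 h in sham, 925.4, 606.0 and 550.3 at 300, and 1075.8, 671.6 and 694.5 at 600 µg TPM/l. Sham peaked at 6 h, while both smoke courses were highest at 2 h. At 2 h the signals were 3.39 times sham at 600 and 2.92 times sham at 300 µg TPM/l, at 6 h 0.917 and 0.828 times sham, and at 20 h 2.61 and 2.07 times sham. Its log2 signal ran against the activators, with r of -0.67 to Bmal1 and -0.87 to Clock 1389456_at over the 9 arrays.

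At 20 h Per1 and Per3, like Per2, were higher on both smoke arrays than in sham, and at 2 h neither had a gap like that of Per2. Per1, a PER gene known for a fast response to hormones, read 409.4, 627.6 and 317.3 in sham, 222.5, 453.0 and 729.8 at 300, and 366.2, 321.1 and 774.0 at 600 µg TPM/l. Both smoke arrays were below sham at 2 and at 6 h, and at 20 h they were 2.44 times sham at 600 and 2.30 times sham at 300 µg TPM/l. Over the 9 arrays the log2 signals of Per1 and Per2 had r of -0.01.

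Per3, a PER gene that mice can lose with little effect on their rhythm, had the widest range of all members. Its type B probe set (1378745_at) read 579.7, 1025.5 and 73.0 in sham, 488.8, 666.0 and 808.6 at 300, and 759.4, 304.0 and 723.7 at 600 µg TPM/l. The sham array at 20 h, at 73.0, was below the filter level of 238.7, and the smoke arrays at 20 h read 9.91 times that signal at 600 and 11.1 times at 300 µg TPM/l, ratios whose size is uncertain with so dim a denominator. On type B the hexokinase control probe sets had a 3'/5' signal ratio, a measure of RNA integrity, of 4.72 on the 300 µg TPM/l array at 20 h, against 2.56 to 3.68 on the other 8, and its part in the values of Per3, Npas2 and Cry1 on that array was not tested. The dim type A probe set also read lowest in sham at 20 h, at 5.6, against 25.4 at 600 and 18.8 at 300 µg TPM/l, and its log2 signal had r of 0.66 with the B probe set over the 9 conditions. The other dim probe sets were mixed in this respect. That of Clock dipped at 6 h in sham (99.7, 87.1 and 114.6) like the brighter ones. That of Per2 had r of 0.07 with the brighter one, and that of Cry2 was flat in sham (130.3, 129.1 and 130.1), where the brighter one peaked at 6 h.

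The CRY genes encode the main repressors of the activator pair. Cry1 read 1307.4, 672.8 and 1070.6 in sham, 1303.7, 847.1 and 830.5 at 300, and 1260.0, 1027.1 and 798.6 at 600 µg TPM/l. It was highest at 2 h in all 3 exposures, the only one of the 9 member probe sets with its highest signal at the same time throughout, against 15.5% of all 19638 probe sets. At 2 h the 3 exposures lay within 1260.0 to 1307.4. Cry2 (1372548_at) read 439.3, 659.4 and 492.2 in sham, 501.6, 406.0 and 466.4 at 300, and 593.2, 433.0 and 458.4 at 600 µg TPM/l. Sham was highest at 6 h, where both smoke courses were lowest.

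The course over recovery time was tested across the 3 exposures (n = 3 arrays per time) with limma, a linear model on log2(signal + 50) that held exposure and time, with Benjamini-Hochberg adjustment over all 19638 probe sets and a threshold of 0.05. No member passed in any of the 4 comparisons of times. The residual spread of this model is the difference in course between exposures. Courses that differ between exposures therefore widen its error and can cancel in its means, so it tests only a course that the exposures share. At 20 h against 2 h, 0.0509% of all probe sets passed, at 6 h against 2 h 0.0153%, at 20 h against 6 h 0.0%, and in the F test of any difference among times 0.0204%. In 20 h against 6 h, where nothing passed in limma, 881 probe sets had an unadjusted p under 0.05, and 1 of the 9 members was among them.

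Cry1 and Npas2 came nearest among the members in the F test, with an adjusted p of 0.33 and 0.48 in limma. Cry1 averaged 849.0 ± 177.2 at 6 h and 899.9 ± 148.7 at 20 h, against 1290.4 ± 26.4 at 2 h (SD, n = 3 each), and all 3 arrays of either later time lay below all 3 at 2 h. The log2 change was -0.60 at 6 h (SE 0.16, 95% interval -0.96 to -0.23, adjusted p = 0.26 in limma) and -0.51 at 20 h (SE 0.16, interval -0.87 to -0.14, adjusted p = 0.28). Groups that did not overlap were seen in 16.1% of all probe sets at 6 h against 2 h and in 18.0% at 20 h against 2 h, and in each comparison Cry1 was the only such member. Without the doubtful B array the changes were -0.57 (adjusted p = 0.57) and -0.49 (adjusted p = 0.59).

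Npas2 averaged 874.4 ± 373.3 at 20 h, against 481.1 ± 93.0 at 6 h (SD, n = 3 each), and the 3 arrays at 20 h, from 640.3, lay above the 3 at 6 h, up to 587.5. The log2 change was 0.74 (SE 0.26, interval 0.17 to 1.32, adjusted p = 1 in limma), and 8.39% of all probe sets had groups that did not overlap in this comparison. The change was 0.34 among the smoke arrays alone. Per1 was 0.73 higher on the log2 scale at 20 h than at 2 h (SE 0.33, interval -0.01 to 1.46, adjusted p = 0.44), a value that ran between 0.41 without the 300 µg TPM/l arrays at 2 h and 1.28 without the sham arrays at 20 h. For the members other than Cry1 and Npas2 the adjusted p of the F test was 0.62 to 0.95, and the intervals of Bmal1, -0.67 to 0.27 at 6 h against 2 h and -0.29 to 0.64 at 20 h against 2 h, include changes in either direction.

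Smoke was compared with sham over the 3 times (n = 3 arrays per exposure) in the same model. No member passed at 600 µg TPM/l, where 0.514% of all probe sets did, or at 300 µg TPM/l, where 0.0458% did, and no member had groups that did not overlap, against 14.4% and 8.44% of all probe sets. Per2 had the largest change of the members in both. It averaged 814.0 ± 227.0 at 600 and 693.9 ± 202.4 at 300, against 438.7 ± 255.6 in sham (SD, n = 3 each), a log2 change of 0.91 at 600 µg TPM/l (SE 0.28, interval 0.30 to 1.52, adjusted p = 0.26 in limma) and of 0.69 at 300 µg TPM/l (SE 0.28, interval 0.08 to 1.31, adjusted p = 0.82). Both comparisons use the same sham arrays.

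The call on Per2 turned on 1 condition. Without the sham arrays at 6 h, the time at which Per2 was higher in sham, Per2 passed at 600 (log2 1.41, SE 0.12, adjusted p = 0.0043 in limma) and at 300 µg TPM/l (log2 1.19, SE 0.12, adjusted p = 0.041), and without those at 2 h its changes were 0.56 and 0.34. With the sham arrays at 6 h left out, 49 of all 19638 probe sets passed at 600 and 4 at 300 µg TPM/l. On type A the hexokinase 3'/5' ratio was 4.52 on the sham array at 6 h, against 2.62 to 3.27 on the other 8, while the GAPDH ratio was 1.25 there and 1.09 to 1.25 over all 9. Whether that ratio has a part in the sham values at 6 h was not tested. Bmal1 changed by -0.16 at 600 µg TPM/l (interval -0.63 to 0.31) and Cry1 by 0.04 (interval -0.32 to 0.40), means over times at which the differences had opposite signs.

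**Figure D2:**
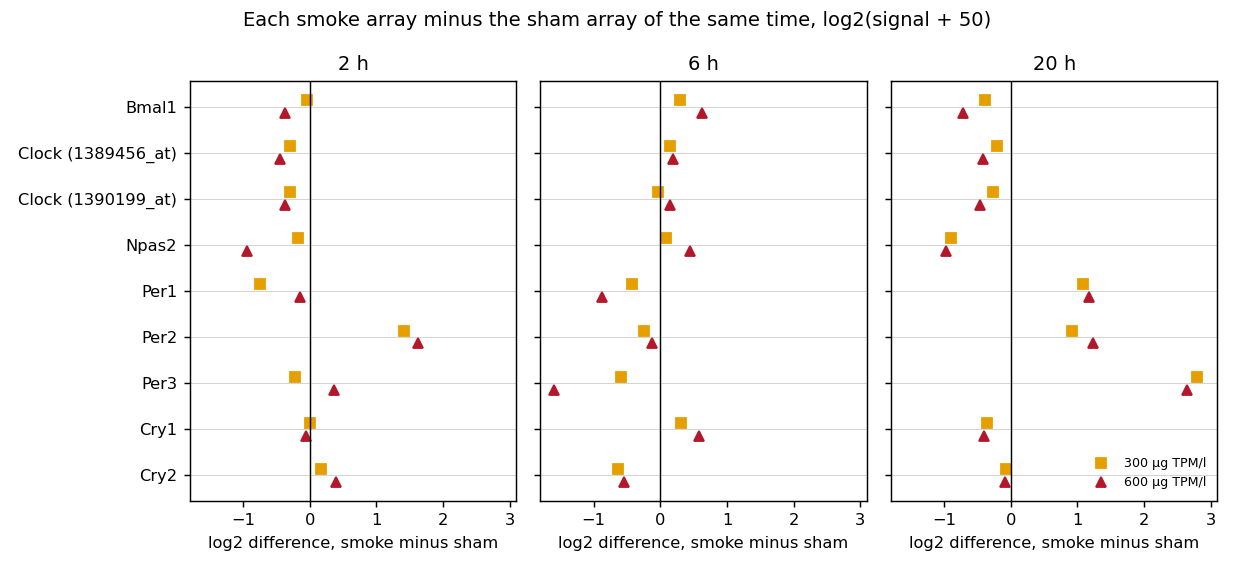
Difference in log2(signal + 50) of the smoke array from the sham array of the same time (horizontal axis) for the 9 probe sets that passed the filter (rows), at 2, 6 and 20 h (panels), with 300 µg TPM/l as orange squares and 600 µg TPM/l as red triangles, 1 array each. Bmal1 lies left of 0 at 2 h (-0.37 at 600), right of it at 6 h (0.62) and left again at 20 h (-0.72), and Per2 lies at 1.62, -0.12 and 1.23 at 600 µg TPM/l.

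Bmal1, Clock 1389456_at, Npas2 and Cry1 were below sham on both smoke arrays at 2 and 20 h and above it at 6 h. Clock 1390199_at was below sham at 2 and 20 h as well, but at 6 h it was 1.12 times sham at 600 and 0.979 times sham at 300 µg TPM/l. At 600 µg TPM/l Bmal1 was 0.725 times sham at 2 h, 1.75 times at 6 h and 0.546 times at 20 h. Npas2 was 0.495, 1.42 and 0.491 times sham at those times, and Cry1 0.964, 1.53 and 0.746 times. At 300 µg TPM/l each of these lay between sham and 600 at every time, as did Clock 1389456_at.

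That order, falling with dose at 2 h, rising with dose at 6 h and falling with dose at 20 h, was therefore held by 4 of the 9 member probe sets (Bmal1, Clock 1389456_at, Npas2 and Cry1), against 0.687% of all 19638 probe sets. The order was read from these same values, and Bmal1, Clock and Npas2 ran together, so the counts describe the members and are no test. With 20 h left out, the same 4 were ordered at 2 and 6 h, against 3.73% of all. On type A alone, which leaves out the doubtful B array, it was 2 of 6, against 0.919%. Counting only on which side of sham both smoke arrays lay, the same 4 were lower, higher and lower at 2, 6 and 20 h, against 4.27% of all. The opposite order of doses at all 3 times, held by 0.514% of all, was held by none of the members, although both smoke arrays of Per2 were above sham at 2 h, below it at 6 h and above it at 20 h, a pattern of sides seen in 3.58% of all. The steps are small for Cry1 at 2 h and, in Clock, at 6 h. Bmal1 also had a small step at 2 h, from 236.6 in sham to 228.5 at 300 µg TPM/l. Npas2 had small steps at 6 h, from 415.1 in sham to 440.8 at 300, and at 20 h, from 678.1 at 300 to 640.3 at 600 µg TPM/l. With 1 array per condition no step has an error of its own. Macrophage and neutrophil marker sums were above sham on both smoke arrays at every time. Smooth muscle markers, all 4 above the filter, summed to 6080.5 at 300 and 6058.5 at 600, against 5748.1 in sham, at 2 h, to 6503.8 and 5901.6, against 7092.1, at 6 h, and to 5711.9 and 6127.8, against 6062.6, at 20 h. The part of these cells in the order of doses was not tested.

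Whether the smoke effect (the mean of 300 and 600 against sham) differed between times was tested with a smoke by time interaction in limma. The residual spread of that model is the spread between 300 and 600 µg TPM/l within a time, so it holds no measured variation of sham arrays and its intervals are too narrow in that respect. No member passed. For 6 h against 2 h 0.0% of all probe sets passed (none in limma, with 1231 at an unadjusted p under 0.05, 6.27%, and 2 of the 9 members among them), and for 20 h against 2 h 0.0102% passed, neither of those 2 probe sets a member.

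For 6 h against 2 h the activators and Cry1 had positive differences, and the 3 PER genes and Cry2 negative ones. That of Per1 was small, -0.20 (interval -1.02 to 0.61), and changed sign under 2 of 15 alternatives. That of Per3 was -1.16 (interval -2.36 to 0.04). Per2 had -1.70 on the log2 scale (SE 0.23, 95% interval -2.23 to -1.17, adjusted p = 0.34 in limma), the mean smoke effect being below 0 at 6 h and above it at 2 h. Cry2 had -0.88 (SE 0.20, interval -1.33 to -0.43, adjusted p = 0.54). Npas2 had 0.82 (interval -0.12 to 1.76), Bmal1 0.67 (interval -0.08 to 1.42) and Cry1 0.47 (interval -0.10 to 1.04), with adjusted p between 0.80 and 0.82.

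For 20 h against 2 h Per3 and Per1 had the largest differences. Per3 had a difference of 2.66 (SE 0.54, interval 1.46 to 3.86, adjusted p = 0.81 in limma), which rests on the dim sham array at 20 h, and Per1 had 1.57 (SE 0.36, interval 0.76 to 2.39, adjusted p = 1). The other members had -0.43 to 0.05. All of these comparisons share the 2 h arrays, and for Npas2, Per3 and Cry1 the differences cannot be estimated without the doubtful B array.

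**Figure D3:**
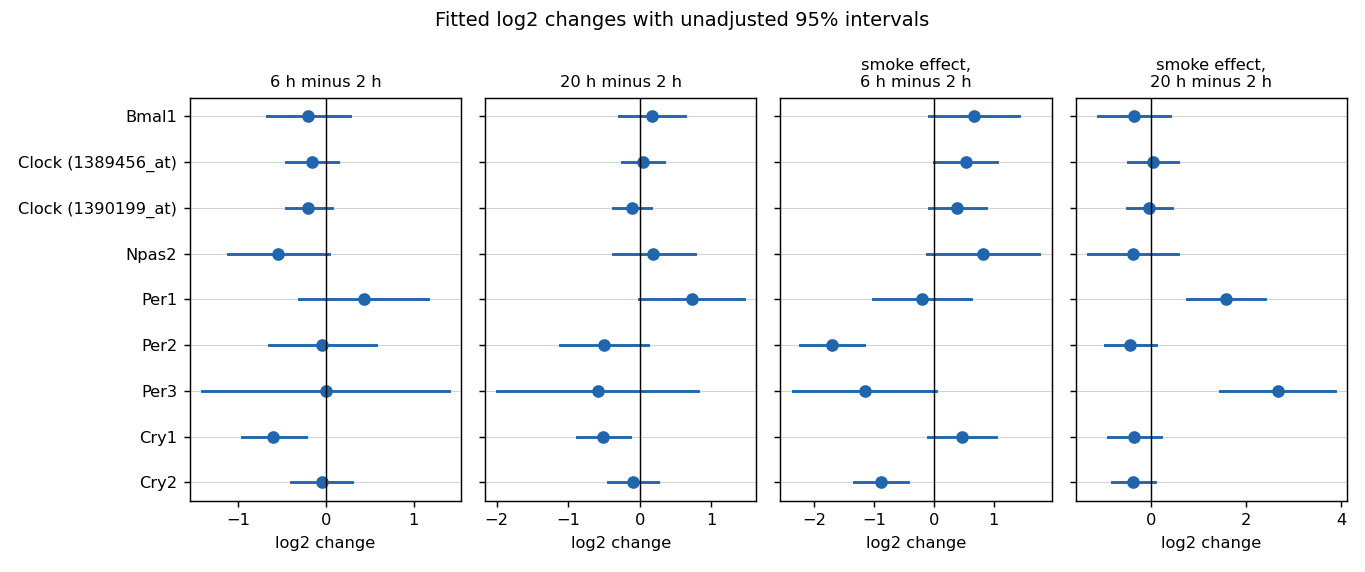
Fitted log2 changes (horizontal axis, a scale of its own in each panel) of the 9 probe sets (rows) with unadjusted 95% intervals, for 6 h minus 2 h, 20 h minus 2 h, and the smoke effect at 6 or 20 h minus that at 2 h. Intervals that leave out 0 belong to Cry1 in both comparisons of times, to Per2 and Cry2 in the third panel (-1.70 and -0.88) and to Per1 and Per3 in the fourth (1.57 and 2.66), and none passed after adjustment.

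The size of the excursion over time was largest in sham lungs for nearly all members. The span, the highest minus the lowest of the 3 times in log2(signal + 50), had a median over the 9 probe sets of 0.91 in sham (0.45 to 3.13), 0.62 at 300 (0.17 to 1.52) and 0.42 at 600 µg TPM/l (0.12 to 1.19). Over all probe sets the median was 0.28, 0.28 and 0.25. The sham span exceeded both smoke spans in 8 of 9 members, all but Per1, against 37.8% of all probe sets, and in 4 (Bmal1, Clock 1389456_at, Npas2 and Per2) the span was smaller at each higher dose, against 21.5%.

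Bmal1 spanned 1.06 in sham, 0.36 at 300 and 0.34 at 600 µg TPM/l, and Npas2 1.54, 0.85 and 0.42. Per1 went the other way, with 0.88 in sham, 1.52 at 300 and 1.15 at 600 µg TPM/l. The count of members with the largest span in sham depended on 6 h: it was 7 of 9 with 20 h left out (40.5% of all probe sets), 8 of 9 with 2 h left out (36.3%), and 3 of 9 with 6 h left out (32.0%), namely Bmal1, Npas2 and Per3. On type A alone it was 5 of 6, against 36.5%. The hexokinase 3'/5' ratio of the sham array at 6 h was 4.52 on type A, the highest of its type. On type B it was 3.68, where the highest was 4.72. The part of these ratios in the spans was not tested.

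**Figure D4:**
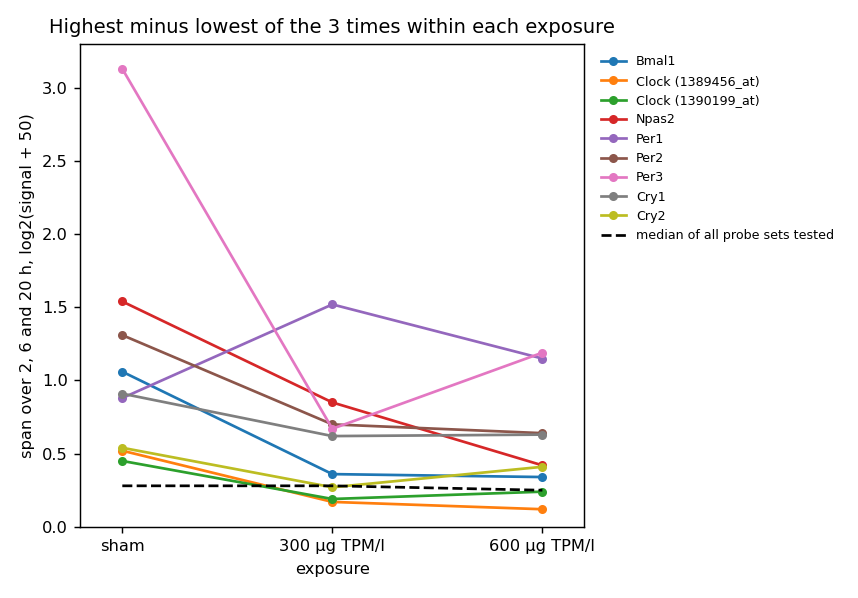
Span over time (vertical axis, highest minus lowest of 2, 6 and 20 h in log2(signal + 50)) for sham, 300 and 600 µg TPM/l (horizontal axis), with 1 line for each of the 9 probe sets and a dashed line for the median of all 19638 probe sets tested. All lines start at 0.45 or above in sham, against 0.28 for the dashed line, and all but that of Per1, which reaches 1.52 at 300 µg TPM/l, are highest there.

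Genes whose log2 signal ran most like that of Bmal1 over the 9 type A arrays, among 8409 probe sets with a single symbol, were Glmn (r = 0.96), Tbpl1 (r = 0.92) and Nfil3 (r = 0.92). Nfil3, a transcriptional repressor of D-box genes, read 231.7, 140.2 and 265.4 in sham, 220.1, 190.6 and 226.3 at 300, and 194.8, 264.2 and 196.2 at 600 µg TPM/l, the same order of doses at each time as in Bmal1. Rrp1 (r = -0.96), Atp6v1d (r = -0.94) and Pdap1 (r = -0.93) ran most against it.

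Most like Per2 were Cdo1 (r = 0.96), Slc7a5 (r = 0.93) and Dgat2 (r = 0.92). Cdo1, which encodes cysteine dioxygenase, read 1806.8, 2377.3 and 1623.4 in sham, 3024.3, 2372.7 and 2319.8 at 300, and 3724.4, 2305.9 and 2617.0 at 600 µg TPM/l. Gramd4 (r = -0.96), Map3k20 (r = -0.96) and Itga6 (r = -0.94) ran most against Per2. These are the extremes of 8409 values over 9 arrays that share exposures and times.

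Of the second loop and clock output, 9 of 12 listed genes were measured, and across the 8 comparisons 1 passed in 1 of them: Bhlhe41, which encodes DEC2, a repressor that competes for E-boxes, was higher at 600 µg TPM/l. In that comparison 0.514% of all probe sets passed. Bhlhe41 read 961.5, 1003.6 and 810.3 at 2, 6 and 20 h at 300 and 1012.4, 1071.2 and 1201.1 at 600 µg TPM/l, against 517.3, 617.0 and 395.2 in sham. The log2 change was 1.05 at 600 µg TPM/l (SE 0.13, adjusted p = 0.0065 in limma, 0.83 to 1.16 and past the threshold under all 21 alternatives) and 0.81 at 300 µg TPM/l (SE 0.13, adjusted p = 0.077). Both smoke arrays were above sham at each time, which was so for none of the core members but was so for the macrophage marker sum, 22286.9 to 25117.2 at 600 µg TPM/l, against 12814.5 to 13664.2 in sham. The part of macrophages in the Bhlhe41 values was not tested.

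The D-box activator gene Dbp, an output of the loop, read 188.7, 1303.0 and 119.6 in sham, 414.8, 568.4 and 483.6 at 300, and 446.0, 203.4 and 668.5 at 600 µg TPM/l. It had the order of doses opposite to that of Bmal1 at each time, as did Nr1d2, which encodes REV-ERB beta, a repressor at ROREs, with 912.5, 1507.1 and 349.7 in sham, 1328.1, 978.1 and 1074.0 at 300, and 1345.9, 523.2 and 1288.1 at 600 µg TPM/l. The smoke effect at 6 h against that at 2 h was -2.78 for Dbp (SE 0.59, adjusted p = 0.49 in limma) and -1.55 for Nr1d2 (SE 0.40, adjusted p = 0.59). Of the 9 genes of the list, 5 had both smoke arrays on the same side of sham at 2 and 20 h and on the other at 6 h, as had 5 of the 9 core members, against 7.85% of all probe sets. Rora, an ROR activator gene, was among these 5, over a narrower range of 768.1 to 1146.9.

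Of the kinases, phosphatases and ubiquitin ligase parts that act on PER and CRY protein, 16 of 20 were measured, and none passed in any of the 8 comparisons. Their median log2 change was -0.05 at 600 µg TPM/l and -0.02 at 20 h against 2 h, beside -0.01 and -0.01 for all probe sets. Of the 16, 1 alternated, with both smoke arrays on the same side of sham at 2 and 20 h and on the other at 6 h, against 7.85% of all probe sets. In the F test among times the lowest adjusted p of the list were 0.44 for Csnk2a2, 0.54 for Prkaa1 and 0.58 for Timeless. Csnk1e, a casein kinase gene whose product phosphorylates PER, followed with an adjusted p of 0.63.

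Of other clock-controlled genes, 6 of 8 were measured, none passed, and 1 alternated in that way, against 7.85% of all probe sets. Por, the electron donor of cytochromes P450, read 823.0, 1130.4 and 708.0 in sham, 1417.9, 984.9 and 954.6 at 300, and 1543.6, 968.0 and 901.0 at 600 µg TPM/l, highest at 2 h in both smoke courses and at 6 h in sham, as Per2 was. Glucocorticoids can induce Per1 and Per2, and of 9 glucocorticoid-responsive genes 8 were measured. Of these, 1 alternated, against 7.85% of all probe sets, and 1 passed, at 600 µg TPM/l against sham, where 0.514% of all probe sets did. The gene that passed was Mt2A, a metallothionein gene that metals also induce, higher at 600 µg TPM/l (log2 2.01, SE 0.21, adjusted p = 0.0021 in limma), where the macrophage and neutrophil marker sums were also higher than in sham, a part not tested. Fkbp5, a classical glucocorticoid target, read 594.3, 324.1 and 473.9 at 300 and 914.2, 425.3 and 668.6 at 600 µg TPM/l, against 618.6, 400.9 and 222.7 in sham, and did not pass (log2 0.67 at 600 µg TPM/l, SE 0.23, adjusted p = 0.33).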

How the data were processed

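Biotin-labelled cRNA of total lung RNA was read on 2 Affymetrix array types, 9 arrays each. The authors deposited linear intensity values from MAS5, a tool named without a version in the submitters' processing notes; each array has the same trimmed mean, so no further scaling was applied. Members were named through the platform annotation, updated by gene identifier. Signals were analysed as log2(signal + 50), so changes of dim probe sets are understated. After the filter, without the 57 control probe sets of each type and with 100 probe sets on both types tested on A only, 9901 probe sets on A and 9737 on B remained. Each type was fitted separately with limma 3.58.1 (R 4.3.3), using lmFit and then eBayes with a trend on intensity, two-sided, with joint adjustment. The model of exposure and time has 4 residual degrees of freedom and the interaction model 3. The fits were tested on simulated data in which only the 20 h arrays were changed, alike in all exposures. Recovery of smoke effects and of interactions was therefore not tested. With single arrays, p-values reflect only how these arrays vary, and their number limits the precision. Members and gene lists were chosen with earlier results of these data known. All member probe sets are named, from each further list up to 4 genes by the adjusted p of the F test, and for Bmal1 and Per2 the 3 genes with the highest and the lowest r. Up to 21 alternative settings per comparison were tried. No genome was used to process the array values, and promoter sequences are those of the rat build GRCr8 at RefSeq start sites.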

Additional observations from a re-analysis of the deposited data

Results flagged for a closer look

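For several members the effect of smoke went in opposite directions at different times, in both smoke arrays. None of these differences passed in limma after adjustment over all probe sets, and each rests on 1 sham array per time. For the smoke effect at 6 h against that at 2 h, the differences on the log2 scale were 0.67 for Bmal1 (SE 0.33, adjusted p = 0.80), 0.53 for Clock 1389456_at (SE 0.23, adjusted p = 0.80), 0.82 for Npas2 (SE 0.42, adjusted p = 0.81) and 0.47 for Cry1 (SE 0.25, adjusted p = 0.82), with both smoke arrays above sham at 6 h and below it at 2 h. Some of these departures from sham were slight. At 2 h Cry1 read 1303.7 at 300 and 1260.0 at 600 µg TPM/l, against 1307.4 in sham, and Bmal1 read 228.5 at 300 µg TPM/l, against 236.6. The differences between 6 h and 2 h were -1.70 for Per2 (SE 0.23, adjusted p = 0.34) and -0.88 for Cry2 (SE 0.20, adjusted p = 0.54), with both smoke arrays below sham at 6 h and above it at 2 h. For the smoke effect at 20 h against that at 2 h, the differences were 1.57 for Per1 (SE 0.36, adjusted p = 1), with both smoke arrays above sham at 20 h and below it at 2 h, and -0.37 for Cry2 (SE 0.20, adjusted p = 1), where they were below sham at 20 h, by 0.09 at 600 and 0.07 at 300 µg TPM/l, and above it at 2 h. No group holds 4 or more arrays of 1 condition, so no array was tested as an outlier within a group.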

How the results depend on the processing

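The count of members past the threshold was 0 in all 8 comparisons, and of 157 counts recomputed under alternative settings 155 were 0 too. The 2 others came from leaving out the sham arrays at 6 h, where Per2 passed, so that the counts without 1 condition ran from 0 to 1 at 600 and at 300 µg TPM/l against sham and stayed at 0 in the other comparisons. Without those sham arrays, 49 of 19638 probe sets passed at 600 and 4 at 300 µg TPM/l. In 20 h against 6 h no setting passed more than 5 probe sets. For the smoke effect at 6 h against that at 2 h none passed more than 1. A count of 0 members there says little. Of 24 member values with an unadjusted p under 0.1, none changed sign under the alternatives, and the 2 of Per2 against sham gained a call, at 1.41 and 1.19 on the log2 scale. The F test values among the 24 are spans, which cannot change sign. The differences of smoke effects among them could not be refitted without the sham arrays they rest on. The signs of these 24 were therefore tried only in part. Of the other 48 values 30 changed sign under at least 1 alternative and none was called, so their signs are not settled. With dose entered as a number, a model chosen after the data were seen, the smoke effect at 6 h against that at 2 h was 0.50 per 300 µg TPM/l for Bmal1 (SE 0.14), 0.70 for Npas2 (SE 0.19) and -0.87 for Per2 (SE 0.21), with adjusted p of 0.52, 0.52 and 0.51 in limma, and 0 of 19638 probe sets passed (1453 at an unadjusted p under 0.05). The counts of members by order of doses, by side of sham and by span were not among the 8 planned comparisons and describe the same values they were read from. The counts by time left out or on type A alone were also chosen after the data were seen. The differences of smoke effects could not be estimated on type B without its sham array at 2 h, nor without the sham arrays at 2 h or at the later time compared. No paired analysis was possible because no condition has a replicate number. Signals near background limit Per3 in sham at 20 h and the 4 untested probe sets.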
